A study of Mus musculus with 10 samples.

Results

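Tcf7 and Lef1 encode TCF-1 and LEF1, the T cell members of the TCF/LEF family of transcription factors, and their chromatin was followed here in regulatory T cells (Tregs) with and without Vps34. The members are the ATAC-seq peaks that lie in the body or within 10 kb of either gene in the GENCODE vM21 annotation of GRCm38. There are 44 of them, 11 at Tcf7 and 33 at Lef1, of 97385 peaks in the series, and all 44 passed the filter on low counts that left 97109 peaks for testing. ATAC-seq marks open chromatin through the transposase that inserts there, and each value below is a library's count in a peak per 1000000 of that library's counts over all peaks (CPM).

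All 10 libraries came from CD4+Foxp3-YFP+TCRb+ Tregs of 10-day-old mice, sorted from spleen or lung. Every mouse carried Foxp3Cre, a YFP-tagged Cre expressed from the Foxp3 locus in Tregs. Control mice were Foxp3Cre with Pik3c3 +/+ or +/fl, so a control Treg may have 1 or both copies of Pik3c3, the gene of Vps34, and which control library had which genotype is not given. Vps34-deficient mice were Foxp3Cre Pik3c3 fl/fl, in which Tregs lose the class III PI3-kinase Vps34, an enzyme of autophagy and endocytic trafficking. By the labels the spleen gave 2 control and 4 Vps34-deficient libraries and the lung gave 2 of each. The study's own description gives the sizes of the spleen groups the other way round, and every spleen value below follows the labels. The labels do not say how many mice stand behind a library, so the p-values measure the spread between these libraries. The test draws that spread at each peak toward the spread over all peaks. Since the sort collects all Tregs, a change within cells and a change in the mix of Treg states cannot be told apart.

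TCF-1 and LEF1 bind DNA through an HMG box and act either with β-catenin as activators downstream of Wnt receptors or with Groucho/TLE proteins as repressors. In T cells they are known for early thymic commitment, for CD4 lineage choice and for the resting, lymph-node-homing and memory states, and their expression usually drops as T cells and Tregs become effectors. Tcf7 is a compact gene of 30.6 kb on the minus strand of chromosome 11 (chr11:52252371-52283014, ENSMUSG00000000782). Lef1 spans 113.9 kb on the plus strand of chromosome 3 (chr3:131110471-131224356, ENSMUSG00000027985), and further annotated transcripts start downstream of the first start. Of the Lef1 peaks 24 lay in introns, 4 touched an exon and 5 lay outside the gene, and of the Tcf7 peaks 8 were intronic, 1 touched an exon and 2 lay outside. Peaks are called below by the distance of their centre from the annotated gene start, counted in the direction of transcription.

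The sequence is shown for the peak nearest the start of each gene and the 3 Lef1 peaks with the smallest p-values, as up to 300 bases around the centre. The sequences are the plus strand of GRCm38, read 5′ to 3′, and capitals mark the letters of a searched motif on either strand. The Tcf7 start peak (chr11:52283186-52283485) holds 1 TCF/LEF match, written here as its reverse complement.
Tcf7 start peak: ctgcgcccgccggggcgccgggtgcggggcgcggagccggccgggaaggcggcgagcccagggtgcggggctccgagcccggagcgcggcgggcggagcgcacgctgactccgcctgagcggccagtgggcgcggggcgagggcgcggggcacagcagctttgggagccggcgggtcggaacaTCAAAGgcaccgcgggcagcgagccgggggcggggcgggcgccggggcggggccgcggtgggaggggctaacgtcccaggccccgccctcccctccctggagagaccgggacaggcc
The Lef1 start peak (chr3:131110004-131110303) holds none of the searched motifs in this window.
Lef1 start peak: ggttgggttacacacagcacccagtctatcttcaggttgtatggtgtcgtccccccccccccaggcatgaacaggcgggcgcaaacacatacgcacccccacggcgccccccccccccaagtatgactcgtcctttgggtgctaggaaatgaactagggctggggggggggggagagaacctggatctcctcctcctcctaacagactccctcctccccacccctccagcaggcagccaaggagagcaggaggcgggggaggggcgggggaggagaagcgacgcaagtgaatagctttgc
The intronic Lef1 peak at 2.78 kb (chr3:131113098-131113397) holds 1 RUNX match.
Lef1 peak at 2.78 kb: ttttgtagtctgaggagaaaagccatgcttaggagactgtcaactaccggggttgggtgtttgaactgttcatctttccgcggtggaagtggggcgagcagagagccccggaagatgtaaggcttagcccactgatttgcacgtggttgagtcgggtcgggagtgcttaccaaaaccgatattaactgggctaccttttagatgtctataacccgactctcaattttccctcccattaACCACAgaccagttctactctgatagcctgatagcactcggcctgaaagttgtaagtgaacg
The Lef1 peak 8.18 kb beyond the end of the gene (chr3:131232574-131232873), centred 122.3 kb from the start, holds none of the searched motifs.
Lef1 peak beyond the end: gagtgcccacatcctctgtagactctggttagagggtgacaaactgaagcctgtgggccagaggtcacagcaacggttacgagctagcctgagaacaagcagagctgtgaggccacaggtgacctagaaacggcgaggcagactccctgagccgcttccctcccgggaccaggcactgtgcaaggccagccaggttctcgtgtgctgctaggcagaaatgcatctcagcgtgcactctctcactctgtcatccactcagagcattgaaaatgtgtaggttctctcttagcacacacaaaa
The intronic Lef1 peak at 15.5 kb (chr3:131125818-131126117) holds a RUNX match that overlaps an E-box match, and 1 AP-1 match.
Lef1 peak at 15.5 kb: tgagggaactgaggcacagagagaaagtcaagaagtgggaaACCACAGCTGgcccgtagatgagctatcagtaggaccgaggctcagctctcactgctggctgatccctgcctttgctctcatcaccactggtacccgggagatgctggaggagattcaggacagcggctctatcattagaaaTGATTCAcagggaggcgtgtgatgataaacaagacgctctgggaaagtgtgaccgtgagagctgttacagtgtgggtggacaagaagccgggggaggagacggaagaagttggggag

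The libraries held 9405823 to 22439699 counts in peaks. Peaks within 1 kb of the starts of 6 Treg genes (Foxp3, Il2ra, Ctla4, Ikzf2, Cd3e and Cd4) were present in every library, with a summed level of 163 to 217 CPM. Of 6 myeloid genes Csf1r, Lyz2 and Fcgr1 had no peak there, while Spi1, Cebpa and Itgam summed to 24.6 to 44.0 CPM. The B cell genes Cd79a, Ms4a1 and Blk had no peak, Pax5 measured 0.36 to 1.69 CPM and Ebf1 14.1 to 19.7 CPM. Of 6 lung epithelial and endothelial genes Sftpc, Nkx2-1, Cdh5 and Cldn18 had none, and Epcam and Pecam1 summed to 41.0 to 52.5 CPM. Of 6 CD8 and NK cell genes Ncr1 and Klrb1c had none, while Cd8a, Cd8b1, Eomes and Nkg7 had peaks in every library, with a summed level of 29.7 to 43.9 CPM. The chromosome Y peaks summed to 56.9 to 67.6 CPM in 5 libraries and to 7.03 to 21.4 CPM in the other 5, and each group held both kinds.

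Summed over all of their peaks, both loci were open in every group, and the group means differed little. The Tcf7 sum was 115 and 119 CPM in spleen controls and 105, 131, 129 and 128 CPM in Vps34-deficient spleen. In the lung it was 113 and 129 CPM in controls and 129 and 103 CPM without Vps34. The compared groups overlapped, and every difference between group means was smaller than the spread between libraries (log2 ratios of -0.09 to 0.07). The Lef1 sum was 384 and 382 CPM in spleen controls, and 378, 426, 428 and 418 CPM in Vps34-deficient spleen. In the lung the Lef1 sum was 392 and 425 CPM in controls and 432 and 363 CPM without Vps34. For Lef1 the difference between genotypes in the spleen was a log2 ratio of 0.11 with a spread between libraries of 0.08, and 1 Vps34-deficient library lay below both controls. Both lung controls lay above both spleen controls, by a log2 ratio of 0.09 with a spread of 0.08, and the other Lef1 differences (-0.04 and -0.06) were smaller than their spreads. With TMM-scaled CPM, the scaling of the tests below, the Lef1 difference between lung and spleen controls was 0.17 with a spread of 0.10, and that of Tcf7 was 0.12 with a spread of 0.16.

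**Figure D1:**
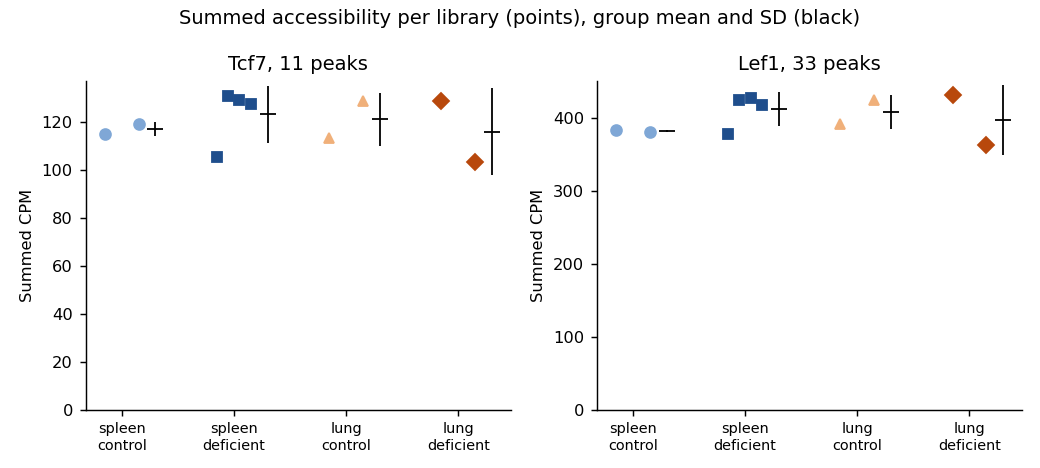
Summed CPM of the 11 Tcf7 peaks and the 33 Lef1 peaks in each library (coloured points), with the group mean and SD beside them in black. Tcf7 lies between 103 and 131 CPM and Lef1 between 363 and 432 CPM, and apart from the spleen and lung controls of Lef1 the compared groups overlap.

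Single peaks differed widely in level at both genes. The highest peak held 22.8% of the Lef1 sum and 25.3% of the Tcf7 sum. The 3 highest of the 33 Lef1 peaks held 47.4% of the Lef1 sum. The 3 highest of the 11 Tcf7 peaks held 74.2% of the Tcf7 sum, and all of them were intronic, at 7.40, 14.5 and 17.2 kb, with mean levels of 29.5, 29.3 and 30.4 CPM. The peak at 17.2 kb (chr11:52265542-52266054), the highest, measured 26.2 and 29.8 CPM in spleen controls, 27.0, 32.5, 29.8 and 32.4 CPM in deficient spleen, 27.9 and 39.2 CPM in lung controls and 35.1 and 23.9 CPM in deficient lung. The start peak of Tcf7 was low by comparison, with a mean of 5.24 CPM. The Lef1 start peak, 102 bp upstream of the first start, had a mean of 9.09 CPM, while the peak at 1.87 kb that ends 15 bp before the downstream transcript starts had a mean of 54.9 CPM. The highest Lef1 peak was intronic, 1350 bp wide and 97.9 kb into the gene (chr3:131207708-131209057), with group means of 90.2 ± 2.03 CPM in spleen controls, 92.6 ± 7.47 in deficient spleen, 96.9 ± 2.46 in lung controls and 86.4 ± 9.97 in deficient lung (SD, n = 2, 4, 2 and 2). It passed the threshold in no comparison.

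**Figure D2:**
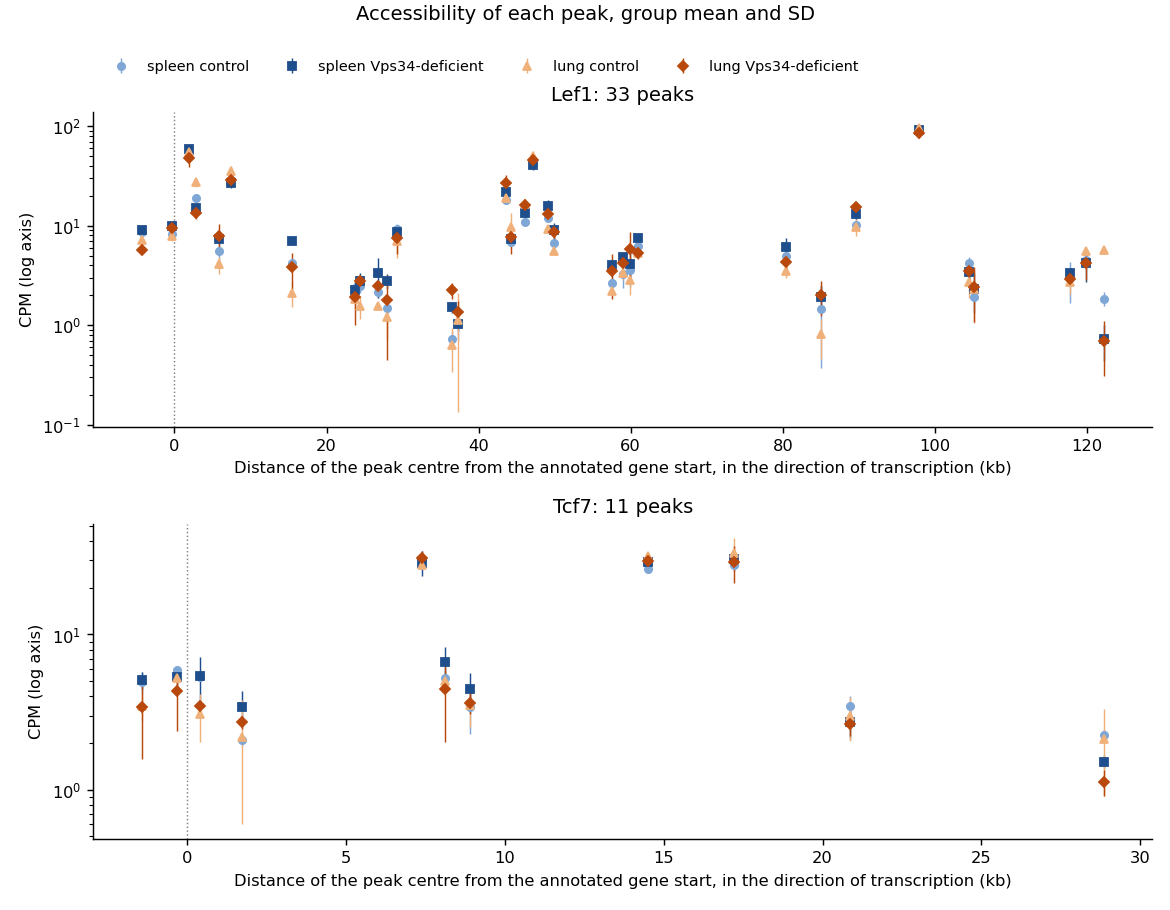
Level of each of the 33 Lef1 and 11 Tcf7 peaks (group mean and SD in CPM, log axis) against the distance of its centre from the annotated start (dotted line). The groups lie on top of each other at the high peaks, and at Lef1 they separate most at the far right, where the peak at 122.3 kb is near 5.66 CPM in lung controls and near 0.70 CPM in both deficient groups.

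The first question was what the loss of Vps34 did at these peaks in each tissue. A peak is called higher or lower where edgeR's quasi-likelihood test, fitted over all 10 libraries, gave a Benjamini-Hochberg adjusted p below 0.05 over all 97109 peaks and the log2 fold change exceeded 0.5 in size. In the spleen no member was called in either direction, against 0.441% of all peaks called higher and 1.02% called lower. Of the 33 Lef1 peaks 8 had an unadjusted p below 0.05 and of the 11 Tcf7 peaks none did, beside 14.3% of all peaks, and DESeq2 also called no member. In the lung no member was called higher and 2 were called lower, both at Lef1, where 1.22% of all peaks were called higher and 3.74% lower. With both tissues in 1 additive model, 3 Lef1 peaks were called higher and 2 lower, beside 3.52% and 4.06% of all peaks, and no Tcf7 peak was called.

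The most strongly reduced member lay 8.18 kb past the 3′ end of Lef1 (chr3:131232534-131232913), between Lef1 and Hadh, a mitochondrial fatty acid oxidation gene whose start is 39111 bp away. It measured 5.95 and 5.36 CPM in the lung controls and 0.98 and 0.42 CPM in the lung without Vps34. In the spleen the controls measured 2.05 and 1.65 CPM and the deficient libraries 1.11, 0.67, 0.45 and 0.65 CPM. The controls were above the deficient libraries in both tissues without overlap, and the lung controls stood above every other library. The log2 fold change in the lung was -2.97 ± 0.51 (SE; adjusted p = 0.000811) and the average over both tissues was -2.04 ± 0.35 (adjusted p = 0.000457). In the spleen alone it was -1.39 ± 0.41, with an adjusted p of 0.0888 that misses the threshold. The counts were low, down to 4 in a library.

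The second peak lay in Lef1 at 2.78 kb (chr3:131113059-131113435), in an intron 253 bp from the nearest of the downstream transcript starts. Lung controls measured 25.5 and 29.2 CPM, and the deficient lung libraries 12.2 and 14.8 CPM. Spleen controls measured 19.0 and 19.1 CPM, and the deficient spleen libraries 13.8, 17.4, 16.0 and 13.0 CPM. Here too every control exceeded every deficient library of its tissue. The log2 fold change was -1.05 ± 0.18 in the lung (adjusted p = 0.000973) and -0.63 ± 0.14 over both tissues (adjusted p = 0.00417), while the spleen value of -0.34 ± 0.15 was not called (adjusted p = 0.294). Its neighbour at 1.87 kb, on the other side of those starts, had log2 fold changes of -0.20 in the lung and 0.13 in the spleen, and neither was called.

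Start peaks of effector Treg genes and of other cells were read beside these 2 reductions. At the start of Klrg1, a receptor of terminally differentiated Tregs, lung controls measured 13.2 and 19.5 CPM and deficient lung libraries between 3.90 and 4.66 CPM, and at Il1rl1, the IL-33 receptor of tissue Tregs, lung controls spanned 3.61 to 9.60 CPM and deficient libraries 1.14 to 1.27 CPM. Prdm1, the gene of the effector Treg regulator Blimp-1, went the other way, with 36.3 and 30.8 CPM in lung controls and 44.7 and 42.5 CPM in deficient lung, and at Gata3, Batf and Maf the lung groups overlapped. The whole list of 7 effector and tissue Treg genes, of which 6 had a start peak and Rora had none, summed to 189 to 213 CPM in lung controls and 182 to 190 CPM in deficient lung, ranges that overlap. The 3 myeloid genes with a peak (Spi1, Cebpa and Itgam) summed to 35.3 to 44.0 CPM in the 4 controls and to 24.6 to 29.7 CPM in the 6 deficient libraries. The part of either in the Lef1 values was not tested.

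**Figure D3:**
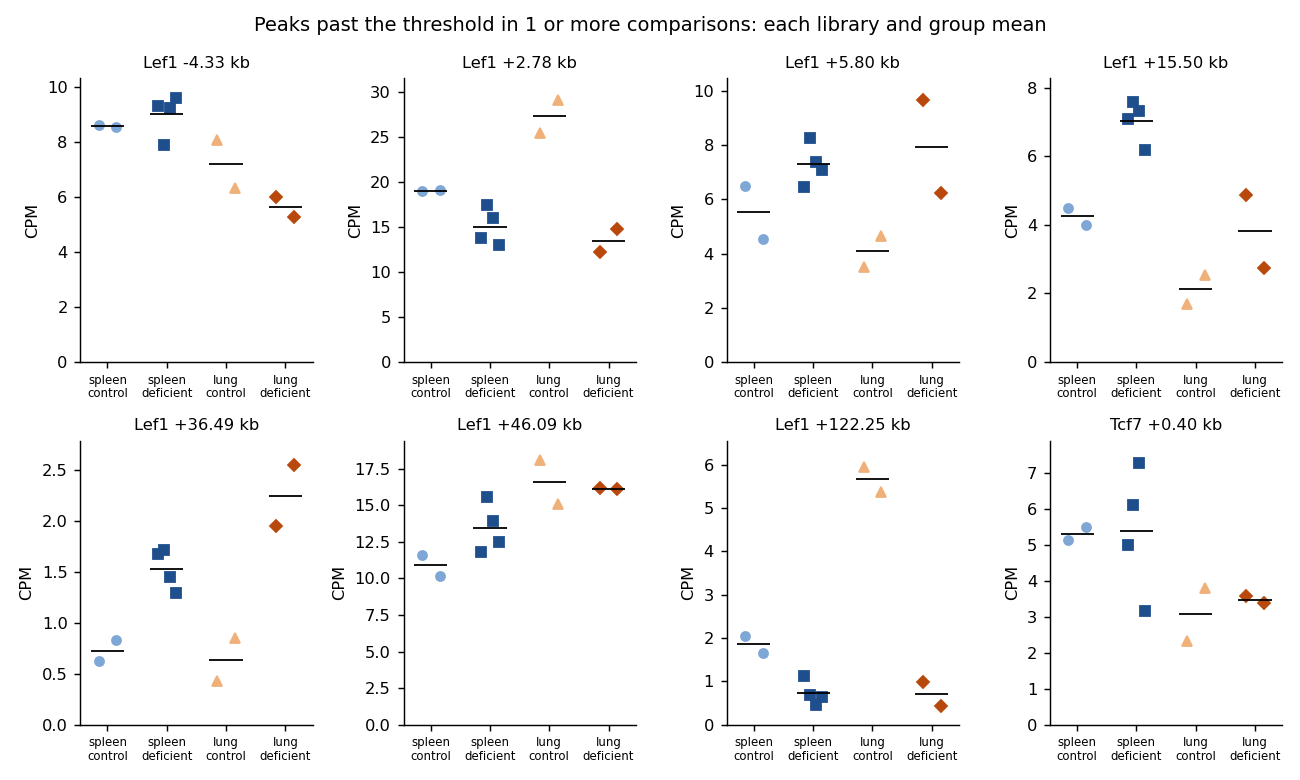
CPM of each library (points) and group means (black lines) at the 8 member peaks past the threshold in 1 or more comparisons, titled by gene and distance of the peak centre from the start. At 122.25 kb and 2.78 kb the 2 lung controls stand above all other libraries, and at 15.50 and 36.49 kb the deficient libraries stand above the controls of their own tissue.

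The 3 Lef1 peaks called higher over both tissues were low interior peaks. At 15.5 kb, in an intron (chr3:131125679-131126256), spleen controls measured 4.50 and 3.99 CPM and deficient spleen libraries 7.09, 7.58, 7.31 and 6.17 CPM. In the lung the same peak measured 1.70 and 2.54 CPM in controls and 4.87 and 2.75 CPM without Vps34, so in each tissue the deficient libraries were above the controls. Its average log2 fold change was 0.76 ± 0.20 (adjusted p = 0.018). At 36.5 kb (chr3:131146855-131147066), also intronic, the controls of both tissues lay between 0.43 and 0.85 CPM and the deficient libraries between 1.29 and 2.54 CPM, with an average log2 fold change of 1.34 ± 0.36 (adjusted p = 0.0188) from counts as low as 4. At 5.80 kb (chr3:131116154-131116386), over an exon of a retained-intron transcript, the lung measured 3.51 and 4.66 CPM in controls and 9.66 and 6.24 CPM without Vps34. There the spleen groups overlapped, with controls at 6.51 and 4.55 CPM and deficient libraries between 6.47 and 8.26 CPM, and the average log2 fold change was 0.60 ± 0.19 (adjusted p = 0.0397). That last call is the weakest, since 10 of its 20 alternatives ended it, 1 of them the fit with no filter on low counts (adjusted p = 0.0507) and 7 of them the removal of 1 library, with a value of 0.44 and an adjusted p of 0.163 without Vps34-deficient lung replicate 1. The 15.5 kb call was lost without spleen control replicate 2 (adjusted p = 0.0588) or Vps34-deficient lung replicate 1 (0.0685), and the 36.5 kb call without spleen control replicate 1 (0.0593) or Vps34-deficient lung replicate 2 (0.0542).

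Over all 33 Lef1 peaks, the called ones included, most genotype values lay above 0. In the spleen 25 of them had a positive log2 fold change, in the lung 22 and on average 21, with medians of 0.25, 0.24 and 0.24, where the medians over all peaks were 0.05, 0.02 and 0.04. The share of all peaks with a positive value was 56.5%, 51.8% and 54.7%. On average 15 of the 33 Lef1 peaks had an unadjusted p below 0.05, beside 24.3% of all peaks. Of these 15 peaks 3 were negative (at 2.78, 7.39 and 122.3 kb). Among the others were the peak at 89.6 kb that covers coding exons, with 0.48 (adjusted p = 0.0274), and the one at 49.1 kb, with 0.43 (adjusted p = 0.0436), both too small in fold to be called. The 24 Lef1 peaks outside the naming rule had mean levels of 1.11 to 54.9 CPM and average log2 fold changes of -0.25 to 0.76.

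**Figure D4:**
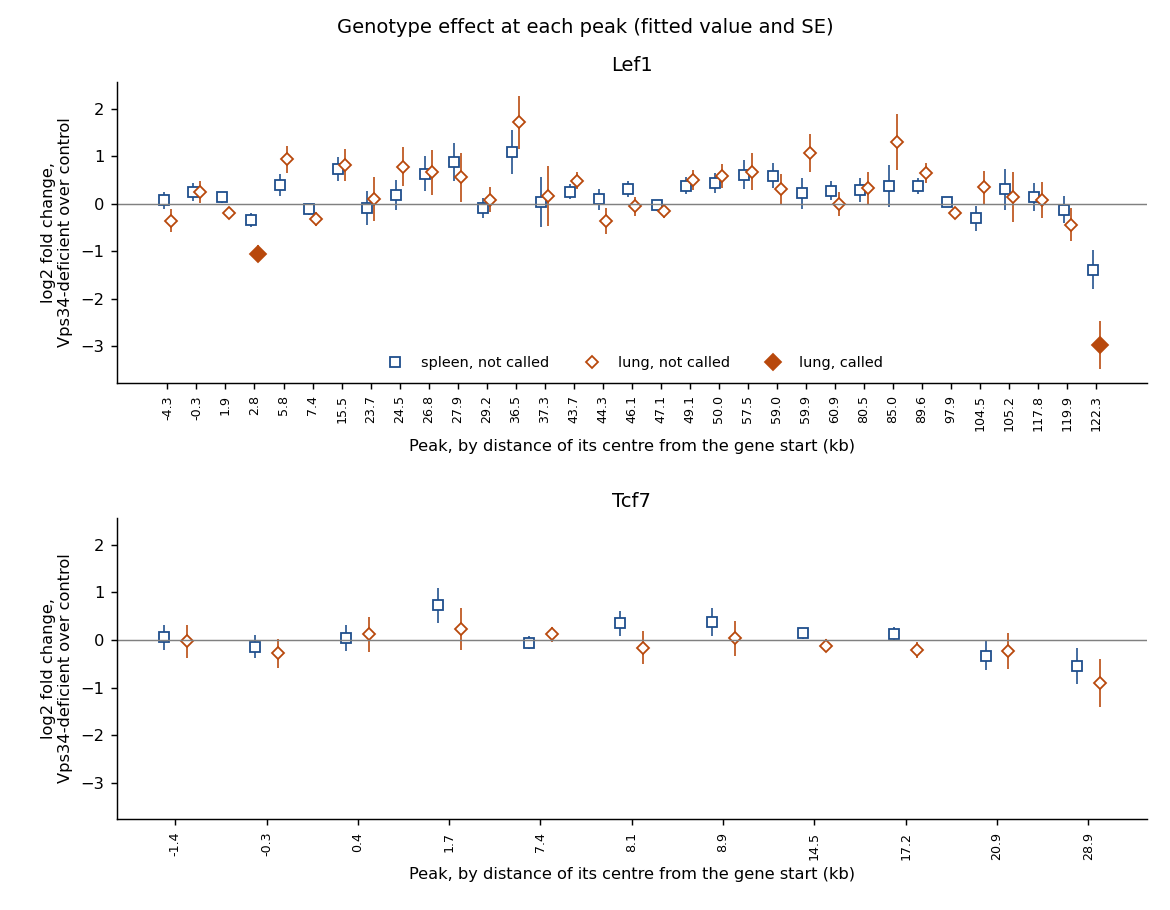
Fitted log2 fold change and SE, Vps34-deficient over control, at each of the 33 Lef1 and 11 Tcf7 peaks in the spleen (squares) and lung (diamonds). Filled symbols mark the 2 called values, -1.05 and -2.97 in the lung, and most of the other Lef1 values lie above 0.

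The spleen and lung responses were compared by the interaction of genotype and tissue. No member was called, nor was any of the 97109 peaks (0%), while 7060 peaks had an unadjusted p below 0.05 and DESeq2 called 2 peaks higher and 23 lower, none of them a member. Of the members 2 had an unadjusted p below 0.05. They were the 2.78 kb peak, at -0.71 ± 0.24 (adjusted p = 0.47), and the peak beyond the 3′ end, at -1.59 ± 0.67 (adjusted p = 0.617). A difference between the lung and the spleen response was thus not called for either peak.

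Lung and spleen Tregs were then compared within each genotype. In controls 3 Lef1 peaks were called higher in the lung and none lower, beside 11.8% and 3.53% of all peaks. They were the 2 peaks that fell in the lung without Vps34, with log2 fold changes of 1.67 ± 0.43 beyond the 3′ end (adjusted p = 0.00946) and 0.60 ± 0.17 at 2.78 kb (adjusted p = 0.0193), and a peak at 46.1 kb. Both comparisons share the lung control libraries. The 46.1 kb peak (chr3:131156403-131156728), over an exon of a noncoding transcript, measured 11.6 and 10.2 CPM in spleen controls and 18.1 and 15.1 CPM in lung controls, a log2 fold change of 0.67 ± 0.19 (adjusted p = 0.0166), and 16.2 and 16.1 CPM in deficient lung. Its call was lost with the compared groups fitted alone (adjusted p = 0.0616). All 3 calls were lost without either spleen control, and those at 46.1 kb and beyond the 3′ end without lung control replicate 1. The 2.78 kb call was also lost without lung control replicate 2 (0.40, adjusted p = 0.2) or Vps34-deficient spleen replicate 3 (0.52, adjusted p = 0.052).

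In Vps34-deficient Tregs no member was called higher in the lung and 2 were called lower, both at Lef1, where 12.5% of all peaks were called higher and 4.72% lower. At 15.5 kb the lung was lower by a log2 fold change of -0.81 ± 0.26 (adjusted p = 0.0345). In controls the value of the same peak was -0.89 ± 0.32, which missed the threshold (adjusted p = 0.0602, and 0.0293 to 0.212 over the alternatives). At -4.33 kb, upstream of Lef1 (chr3:131105960-131106322), the spleen measured 9.32, 7.89, 9.25 and 9.62 CPM and the lung 6.01 and 5.29 CPM without overlap, a log2 fold change of -0.62 ± 0.21 (adjusted p = 0.0393). Neither the 2.78 kb peak nor the one beyond the 3′ end was called there, with log2 fold changes of -0.11 ± 0.16 and 0.09 ± 0.51. Both calls ended with the chromosome Y signal as a covariate (adjusted p = 0.0514 at 15.5 kb and 0.0552 at -4.33 kb). They also ended with the replicate number as a block (adjusted p = 0.108 at 15.5 kb and 0.186 at -4.33 kb). Both were also lost without spleen control replicate 2, Vps34-deficient spleen replicate 3 or Vps34-deficient lung replicate 2, with adjusted p of up to 0.423 and 0.279 (the 15.5 kb value was -0.42 without that lung library and -1.25 without the other), and 1 of them without Vps34-deficient spleen replicate 2 or 4 or lung replicate 1.

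Averaged over genotypes 1 member was called higher in the lung and 2 lower, beside 18.4% and 6.51% of all peaks. The higher one was the peak beyond the 3′ end of Lef1, at 1.01 ± 0.36 (adjusted p = 0.0363), a call lost without any 1 of the 4 controls or of Vps34-deficient spleen replicates 2 and 3 (adjusted p of up to 0.177). The lower ones were the Lef1 peak at 15.5 kb, at -0.84 ± 0.20 (adjusted p = 0.00262), and 1 peak of Tcf7. Of the 33 Lef1 peaks 14 had a positive tissue value on average and the median was -0.03, beside -0.01 over all peaks.

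At Tcf7 that peak was the sole one past the threshold in any comparison. It lies at 0.40 kb (chr11:52282457-52282765) over the start of the Tcf7 transcript that begins downstream of the annotated gene start, on untranslated sequence, and overlaps the antisense gene A630014C17Rik. The spleen controls measured 5.12 and 5.51 CPM and the deficient spleen libraries 5.01, 6.12, 7.27 and 3.16 CPM. Lung controls measured 2.34 and 3.81 CPM and deficient lung libraries 3.57 and 3.39 CPM. In controls lung and spleen did not overlap, while among the deficient libraries 1 spleen library lay below both lung libraries. The average tissue log2 fold change was -0.63 ± 0.23 (adjusted p = 0.0377), and with the chromosome Y signal as a covariate it was -0.56 (adjusted p = 0.0643). The call was also lost without spleen control replicate 2, Vps34-deficient spleen replicate 3, lung control replicate 1 or either deficient lung library (adjusted p of 0.0527 to 0.111). The start peak of Tcf7 beside it (chr11:52283150-52283521) measured 5.75 and 6.13 CPM in spleen controls and 4.57 and 5.86 CPM in lung controls, with an average tissue value of -0.17 ± 0.20 that was not called.

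Genotype values at Tcf7 were small at its high peaks and larger only at low ones. The largest in the spleen was 0.73 ± 0.36 at 1.72 kb (chr11:52281178-52281410; adjusted p = 0.369), an intronic peak at 1.96 and 2.20 CPM in controls and 3.69, 3.91, 3.97 and 2.08 CPM without Vps34. The largest in the lung was -0.91 ± 0.50 at 28.9 kb (chr11:52254020-52254289; adjusted p = 0.32), near the 3′ end of the gene and inside the overlapping gene Gm26551. That peak measured 2.98 and 1.27 CPM in lung controls and 0.98 and 1.27 CPM in deficient lung, and its average log2 fold change of -0.68 ± 0.30 was not called (adjusted p = 0.16). This lung difference rests on single control libraries, since leaving out replicate 1 of the controls moved it to -0.11 and leaving out replicate 2 moved it to -1.39. The 3 high intronic peaks had average genotype values of -0.02, 0.02 and 0.03. Over all 11 Tcf7 peaks the median genotype value was 0.06 in the spleen, -0.12 in the lung and 0.02 on average, and the 6 Tcf7 peaks outside the naming rule had mean levels of 2.92 to 29.5 CPM and average genotype values of -0.29 to 0.24.

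Widening the window to 50 kb on each side added 17 peaks at Tcf7 and 12 at Lef1, and 2 of them, both upstream of Tcf7, were called for genotype, where 1.22% of all peaks were called higher and 3.74% lower in the lung, and 3.52% and 4.06% on average. The nearer one (chr11:52294093-52294486), 11079 bp upstream of the Tcf7 start and so just outside the 10 kb window, measured 9.14 and 12.6 CPM in lung controls and 4.06 and 5.93 CPM in deficient lung. In the spleen it measured 8.29 and 7.30 CPM in controls and 3.89, 4.65, 4.33 and 6.10 CPM without Vps34, again without overlap. Its log2 fold change was -1.17 ± 0.28 in the lung (adjusted p = 0.0128) and -0.90 ± 0.18 on average (adjusted p = 0.00217). The farther one (chr11:52310838-52311142), 27824 bp upstream, measured 2.55 and 4.23 CPM in lung controls and 6.82 and 7.41 CPM in deficient lung, and its average log2 fold change was 0.62 ± 0.20 (adjusted p = 0.0448).

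The motif search covered 300 bases around each peak centre on both strands. The TCF/LEF letters CTTTGA or CTTTGT were in 12 of the 33 Lef1 windows and 5 of the 11 Tcf7 windows, where 39.0% of the 96974 tested windows on assembled chromosomes held them. RUNX letters (TGTGGT) were in 9 Lef1 and 2 Tcf7 windows, beside 26.5% of all windows, and ETS letters (CAGGAAG) in 4 and 3, beside 20.8%. AP-1 letters (TGANTCA) were in 5 Lef1 windows and 1 Tcf7 window, beside 13.0%, and the GATA letters (AGATAA) in 3 and 0, beside 15.1%. KLF letters (GGGTGTG or GGGCGTG) were in 4 and 2, beside 13.3%, and the E-box CAGCTG in 8 and 2, beside 17.7%. The Lef1 peak at -4.33 kb held 2 TCF/LEF matches, and the peak at 59.0 kb held 3 AP-1 matches. A match is a description of the letters in the window and not a measured binding site.

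Each gene's summed profile was compared with that of every other protein-coding gene with 3 or more peaks, by the root mean square difference of the centred log2(summed CPM + 0.5) over the 10 libraries. Among the 5 closest to Tcf7 of 12248 genes were E2f2, a cell cycle transcription factor (0.035), Chd2, a chromatin remodeller (0.048), Prkaca, a catalytic subunit of protein kinase A (0.049), and Lef1 (0.050), where the median gene was at 0.171. Closest to Lef1 were Arhgef10 (0.045), Tcf25 (0.045), Cytip (0.046), Fchsd2 (0.046) and Coro1c (0.048), with a median of 0.159, and Tcf7 was 10th. These are similarities of nearly flat profiles that share libraries and depth.

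The rest of the pathway was read from a list of 38 genes with 241 tested peaks within the same window. For genotype, 3 peaks were called higher and 3 lower in the spleen, beside 0.441% and 1.02% of all peaks. In the lung 2 were higher and 11 lower, beside 1.22% and 3.74%, and on average 14 were higher and 15 lower, beside 3.52% and 4.06%. For tissue, 22 were called higher and 6 lower in the lung of controls, beside 11.8% and 3.53%, and 20 and 5 in Vps34-deficient Tregs, beside 12.5% and 4.72%. On average 35 were higher and 6 lower in the lung, beside 18.4% and 6.51%, and none was called for the interaction. The list's median log2 fold change lay between -0.05 and 0.02 in every comparison. The 16 receptors and adaptors, the Frizzled, LRP, Ryk and Dishevelled genes through which Wnt signals enter, gave 6 of the 11 peaks lower in the lung without Vps34, from 71 tested peaks. The 7 genes of the destruction complex, which degrades β-catenin, gave none from 41, and the 8 corepressors and inhibitors gave 2 from 61. Of all peaks 3.74% were lower there, and differences between the subgroups were not tested.

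The other family members, Tcf7l1 (TCF-3) and Tcf7l2 (TCF-4), had 35 tested peaks, of which 1 was called higher and 1 lower in the spleen (0.441% and 1.02% of all peaks) and 3 lower in the lung (3.74%) for genotype. On average over both tissues 4 were called higher and 4 lower (3.52% and 4.06% of all peaks). A Tcf7l1 peak (chr6:72641255-72642262) fell in both tissues, from 2.82 ± 0.29 to 0.75 ± 0.27 CPM in the spleen and from 5.82 ± 0.56 to 1.07 ± 0.59 CPM in the lung (SD), with log2 fold changes of -1.93 ± 0.38 (adjusted p = 0.00706) and -2.51 ± 0.46 (adjusted p = 0.00179). As at the Lef1 peak beyond the 3′ end, the lung controls had the highest group mean, the spleen controls the next, and both deficient groups were low. The Tcf7l2 peaks that fell in the lung were chr19:55865775-55866536, from 7.32 ± 0.77 to 3.10 ± 0.71 CPM, and chr19:55860038-55860365, from 3.15 ± 1.14 to 0.96 ± 0.44 CPM. The one that rose in the spleen was chr19:55826981-55827194, from 2.65 ± 0.04 to 6.21 ± 0.84 CPM, with an average log2 fold change of 0.88 ± 0.19. Other Tcf7l2 peaks that rose on average were chr19:55892139-55892349, by 0.66 ± 0.13, and chr19:55791631-55792202, by 0.62 ± 0.18.

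Of the other called peaks of these genes, Tcf7l1 chr6:72659795-72660387 was higher in the lung of controls by 2.59 ± 0.65 and lower without Vps34 on average by -1.52 ± 0.46, and Tcf7l1 chr6:72680525-72680734 was higher in the lung of both genotypes (1.92 ± 0.66 and 1.79 ± 0.52). Tcf7l1 chr6:72631195-72631625 was higher without Vps34 on average by 0.65 ± 0.21. In controls Tcf7l2 chr19:55792517-55792969 and chr19:55750537-55750848 were lower in the lung, by -0.57 ± 0.15 and -1.90 ± 0.63. Without Vps34, Tcf7l2 chr19:55791631-55792202 was lower in the lung by -0.66 ± 0.23 and chr19:55801031-55801238 higher by 1.47 ± 0.52.

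For tissue the Tcf7l2 peak chr19:55826981-55827194 was also higher in the lung, by 2.05 ± 0.28 in controls (adjusted p = 7.02e-05) and 1.35 ± 0.22 without Vps34. The Tcf7l2 peak chr19:55892139-55892349 was higher by 1.37 ± 0.20 and 1.32 ± 0.16, at 24.7 ± 4.97 CPM in spleen controls against 60.8 ± 26.7 in lung controls, a group with a wide spread. A further Tcf7l2 peak (chr19:55941493-55941754), 2.25 ± 0.91 CPM in spleen controls, was listed at 0 in both deficient lung libraries and at a mean of 0.07 CPM in lung controls. Of the inhibitors, Ctnnbip1, which blocks the binding of β-catenin to TCF proteins, had a peak (chr4:149515502-149515711) higher in the lung by 1.34 ± 0.19 in controls and 1.31 ± 0.16 without Vps34. Its lung controls also lay far apart, at 43.4 and 26.0 CPM. Of the 71 tested peaks of receptors and adaptors 7 were higher and 1 lower in the lung of controls, beside 11.8% and 3.53% of all peaks, and 10 higher and 2 lower without Vps34, beside 12.5% and 4.72%. The Wnt coreceptor Lrp6 had the lower peak of controls (chr6:134532977-134533435), at -0.85 ± 0.18, and in the lung this peak was higher without Vps34 by 1.33 ± 0.18 (adjusted p = 6.43e-05). Lrp5, its relative, had a peak (chr19:3692514-3692759) at -2.82 ± 0.93 for lung over spleen in Vps34-deficient Tregs, and at -3.69 ± 0.96 for deficient over control in the lung.

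Of the coactivators that join β-catenin, 5 genes with 33 tested peaks, Bcl9 and Bcl9l had called peaks and Ctnnb1, Pygo1 and Pygo2 had none. A Bcl9 peak (chr3:97294315-97294953) rose in the spleen without Vps34, from 4.68 ± 0.19 to 8.64 ± 1.5 CPM (0.89 ± 0.22; adjusted p = 0.0416). Another (chr3:97297120-97297702) rose in the lung, from 3.29 ± 1.34 to 6.98 CPM (1.02 ± 0.30; adjusted p = 0.0443). The third Bcl9 peak (chr3:97289275-97289693) and the Bcl9l peak (chr9:44505815-44506027) were higher in the lung in both genotypes, by 1.30 ± 0.30 and 1.30 ± 0.20 in controls and by 1.46 ± 0.24 and 1.20 ± 0.16 without Vps34. The lung controls lay far apart at both, at 21.1 and 11.4 CPM for this Bcl9 peak and 52.7 and 30.5 CPM for Bcl9l.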

How the data were processed

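ATAC-seq was performed on 10 Treg libraries. The authors deposited whole-number counts of reads per peak, not normalized, over 1 common peak set; the submitters' processing notes name cutadapt 1.9, Picard 1.65, SAMtools, MACS2 2.1.0.20150603 and bedtools, and the builds mm10 and GRCm38. Between 91.4% and 96.4% of a library's counts were even numbers, so both mates of a fragment may have been counted and the independent molecules are fewer than the counts. Peaks were placed on GENCODE vM21. On GRCm38 a peak covered 51.3% of protein-coding gene starts, and 2.82% after a shift of 100 kb. Sequences come from the RefSeq copy of GRCm38.

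Counts were filtered with filterByExpr, scaled by TMM and tested with edgeR 4.0.16 (quasi-likelihood, 4 groups, all 10 libraries, R 4.3.3), with Benjamini-Hochberg adjustment over 97109 peaks. Averages used an additive model of tissue and genotype. SE is the log2 fold change over the root of F. The spread of each peak was moderated toward that of all peaks, with a median prior of 17.9 degrees of freedom. DESeq2 1.42.0 and the other alternatives are in the closing section. The fit was tested on simulated counts. No 2 libraries of a group were alike within sampling noise (chi-square per peak of 1.37 or more). The members, lists and rules were chosen with earlier results of these data known. Peaks were described singly where nearest a start, highest, called in any comparison, or largest in genotype change, and pathway peaks where called in a family member or coactivator or among the smallest p-values of a tissue comparison. The other member peaks given with values were picked after their values were seen. A named marker's level is the sum of peaks within 1 kb of its start. The resting Treg marker list, a further marker gene and 1 gene of similar profile are not reported here.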

Additional observations from a re-analysis of the deposited data

Results flagged for a closer look

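In the 4 libraries of Vps34-deficient spleen 18 values were checked for a library far from the other 3, and 2 were found, where chance gives about 1 in 20. The Tcf7 sum was 105 CPM in replicate 1 and 128 to 131 CPM in the others. The Tcf7 peak at 1.72 kb was at 2.08 CPM in replicate 4 and between 3.69 and 3.97 CPM in the others, so the largest Tcf7 genotype value of the spleen rests on 3 of 4 libraries. No tested difference between the genotype effects of spleen and lung passed the threshold at a member.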

How the results depend on the processing

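The alternatives were run for 15 called and 13 other peak values, and none of these changed its sign. The start peaks, the highest peaks and the other peak values given were not among them. The lung and average reductions of the Lef1 peak beyond the 3′ end kept their calls in all of them (-3.66 to -2.47 and -2.28 to -1.76), and so did those of the 2.78 kb peak (-1.11 to -0.84 and -0.74 to -0.51), except that its average is below a fold threshold of 1 on the log2 scale. Of the 306 alternative values of the 15 called ones 59 lost the call.

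Counts of called members moved as follows. In the lung genotype comparison 1 peak was called higher with median-of-ratios scaling, the stricter filter (a minimum count of 30) or halved counts and 2 with DESeq2, and 1 peak was lower within the gene body alone. For tissue in controls 1 was higher above a log2 fold change of 1, and 1 was lower with library size or median-of-ratios scaling, no filter, the stricter filter or halved counts. For tissue without Vps34 the lower calls went to 0 with the replicate block, the chromosome Y covariate or a log2 fold change above 1, and to 1 in the gene body alone. On average for genotype 5 were higher with no fold threshold and 1 above a log2 fold change of 1, and 1 was lower above 1 or in the gene body alone. On average for tissue 0 were higher with the replicate block or in the gene body alone and 4 with no fold threshold, and 1 was lower with the chromosome Y covariate and 0 above 1. Among single calls, the 46.1 kb one in controls ended with the compared groups alone (adjusted p = 0.0616), and the average genotype one at 5.80 kb with no filter (0.0507) or the replicate block (0.0785). The causes were not tested, beyond that stricter thresholds and narrower windows hold fewer calls.

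Leaving out 1 library at a time gave 0 to 2 higher in the lung genotype comparison, where 2 remained lower each time, 0 to 3 higher and 0 to 1 lower for tissue in controls, 0 to 1 and 0 to 2 for tissue without Vps34, 1 to 4 higher and 2 lower for the average genotype effect, and 0 to 3 and 1 to 3 for the average tissue effect. It gave 0 for the spleen genotype and interaction comparisons.

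Samples with the same replicate number did not deviate together (correlations of -0.098 to 0.063). This cannot show whether the numbers pair the samples, since deviations in a group of 2 mirror each other and include counting noise. Chromosome Y peaks summed to 56.9 and 67.6 CPM in spleen and lung of control replicate 1, and to 7.03 and 12.8 CPM in replicate 2. In Vps34-deficient replicates they summed to 9.88 and 21.4 CPM in replicate 1 and to 64.8 and 63.4 CPM in replicate 2. Whether 1 mouse gave both tissues was not tested. With the replicate block the called peaks of the whole series went from 428 higher and 994 lower to 25 and 252 in the spleen and from 1188 and 3632 to 462 and 2310 in the lung, while with the compared groups alone they were 1370 and 1798 and 139 and 1684. Depth limits the low peaks: the lowest Lef1 peaks rest on as few as 4 counts in a library, and the lowest Tcf7 peak on 10. The log2 differences between group means of the summed levels moved by less than their spread with TMM scaling, the gene body alone or 50 kb windows (the Lef1 tissue difference in controls went from 0.09 to 0.17 with TMM scaling), while the sums themselves follow the number of peaks in the window.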
